A study of Mus musculus with 54 samples.

Results

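The 1705 regions described here were CTCF binding sites inside very long genes of the mouse genome. Overlapping CTCF peaks of 22 libraries were merged into 68126 sites, and 52646 of these were called in 2 or more libraries. A site was kept when its median summit lay in the body of a protein-coding gene of 500 kb or more (GENCODE vM21 on mm10), outside coding sequence and over 1 kb from every protein-coding gene start. The same rule without the length limit gave 20189 sites in shorter genes, which served for comparison. The rule used position and calling only, and neither fold enrichment, sequence, cohesin nor the groups.

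CTCF is a DNA-binding protein with a row of zinc fingers that recognizes a directional motif. Cohesin, of which Rad21 and Smc3 are subunits, extrudes DNA loops and halts at CTCF bound with its motif facing the oncoming complex. Very long genes are made almost entirely of introns. Many act in neurons, as adhesion molecules, receptors or channels, and several are common fragile sites, which break when replication is impaired.

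CTCF, Rad21 and Smc3 were profiled by ChIP-seq in mouse E14 embryonic stem cells (ESCs) and in neural progenitors (NPCs) after 2 days of differentiation. The rescue cells carried a degron and eGFP on both endogenous CTCF alleles, OsTIR1(F74G), an mCherry reporter of the motor neuron gene Hb9, and a doxycycline-inducible Flag-Halo transgene of CTCF-WT or CTCF-ΔZF1, which lacks the first zinc finger. Each rescue line was 1 clone, and all rescue cells received 1 µM 5-Ph-IAA, which degrades endogenous CTCF, plus 1 µg/ml doxycycline for 24 h. There were 4 CTCF libraries for each of WT and ΔZF1 in ESCs and NPCs, and 2 each for NPCs of parental E14 and of the knock-in lines Podxl pA and Grb10 pA, in which a polyadenylation signal truncates the named RNA. For the E14, Podxl pA and Grb10 pA groups the labels give no such treatment. Each rescue group also had 2 Rad21 and 2 Smc3 libraries, and each of the other NPC groups had 2 Smc3 libraries.

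The CTCF lists held 5755 to 45941 peaks, the Smc3 lists 8169 to 34104 and the Rad21 lists 1306 to 10415. Read depth is not in the lists, so a site that was not called is not shown to be unbound. Replicates 1 and 4 of the rescue groups had wider peaks (352 to 447 bp by the median) than replicates 2 and 3 (190 to 301 bp). The share of a library's sites within 1 kb of a gene start ran from 7.15% to 40.1% and was highest in ΔZF1 NPC replicate 1. Results were also computed within each of these replicate sets, with values given below. The part of peak width itself, and of the share near gene starts, was not tested.

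The sites shown first carry the extremes of calling, spacing and loss described below. The sequences were read from the RefSeq GRCm38 genome (the mm10 build) on the strand of the motif, 5′ to 3′, and capitals mark the best match to the CTCF core motif, allowing 2 mismatches within 50 bp of the summit.

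Gm20388, with a perfect motif and called in all 22 libraries (chr8:120319676-120319728, plus strand): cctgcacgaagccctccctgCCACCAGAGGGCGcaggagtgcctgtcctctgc
Slit3, among the strongest sites called in all 22 libraries (chr11:35667516-35667568, minus strand): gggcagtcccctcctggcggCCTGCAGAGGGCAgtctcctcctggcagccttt
Erc2, called in all 22 libraries and free of Smc3 peaks (chr14:27804139-27804191, plus strand): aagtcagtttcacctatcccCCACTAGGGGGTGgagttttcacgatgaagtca
Ctnna3, found in every NPC library of WT but not of ΔZF1 (chr10:63582749-63582801, plus strand): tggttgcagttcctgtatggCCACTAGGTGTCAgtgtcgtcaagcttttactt
Ntm, of the same pattern as the Ctnna3 site (chr9:29650815-29650867, minus strand): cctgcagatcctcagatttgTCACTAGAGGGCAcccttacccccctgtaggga
Grm7, first of the closest pair (chr6:111057970-111058022, plus strand): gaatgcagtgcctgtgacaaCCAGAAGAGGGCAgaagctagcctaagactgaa
Grm7, second of the closest pair (chr6:111058592-111058644, plus strand): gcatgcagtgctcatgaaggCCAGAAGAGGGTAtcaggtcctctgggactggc
Macrod2, before the longest gap (chr2:140668437-140668489, minus strand): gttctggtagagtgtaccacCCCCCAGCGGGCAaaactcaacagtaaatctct
Macrod2, after the longest gap (chr2:142086383-142086435, minus strand): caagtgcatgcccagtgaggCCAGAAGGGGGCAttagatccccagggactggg

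Both Grm7 sites and the second Macrod2 site share the letters CCAGAAG at the start of the match, whereas the Slit3, Erc2 and Ctnna3 sites do not. That shared start recurs in the most frequent motif words of the whole set, described further on.

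Long genes were sparsely bound for their size. Of 21951 protein-coding genes 230 were 500 kb or more, and 211 of them (91.7%) held at least 1 site. They held 8.56 sites per Mb of gene, against 13.9 in genes of 250 to 500 kb, 20.0 at 100 to 250 kb, 26.6 at 50 to 100 kb and 30.0 below 50 kb. Density thus fell at each step of gene length. Of the sites, 97.9% lay in introns and 36 in noncoding exon sequence. These densities are descriptions over genes, which overlap in places, with no test.

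A few gene models held a large part of the sites. In 6 models that span 5 or more whole protein-coding genes, hereafter multi-gene models, lay 346 sites (20.3%). Gm20388 on chromosome 8 (4435 kb, 71 other genes inside) held 239 sites, Fgfr2 as annotated (2961 kb, 29 genes inside) held 79 and Gm37240 (1391 kb, 6 genes inside) held 20. A site in these models can lie in or between other genes, so values are also given for the remaining 224 models, called single-gene models although some hold up to 4 smaller genes, which held 1359 sites. Their density was 7.24 sites per Mb, with a median of 5 sites per gene. Only 47 of the 224 had 10 or more sites, and 67 had 1 to 3. Across them the number of sites followed length weakly (Spearman rho 0.14 over 224 genes, a description).

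Camta1, which encodes a calmodulin-binding transcription factor, led the single-gene models with 45 sites in 945 kb (47.6 per Mb). Pde4d, a cyclic AMP phosphodiesterase, followed with 24 sites in 1504 kb, and Nav2, a cytoskeletal protein of neurite growth, with 23 in 701 kb. Cdh13, an atypical cadherin, held 22 sites and Ank3, the ankyrin of the axon initial segment, held 21. Sox5, a transcription factor of neural and cartilage development, held 20 sites. The acid-sensing channel gene Asic2, the postsynaptic scaffold gene Dlgap1 and the exchange factor gene Kalrn held 19 each. These genes were not evenly bound along their length: in Dlgap1 the longest gap was 361 kb and the median gap 9.89 kb.

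**Figure D1:**
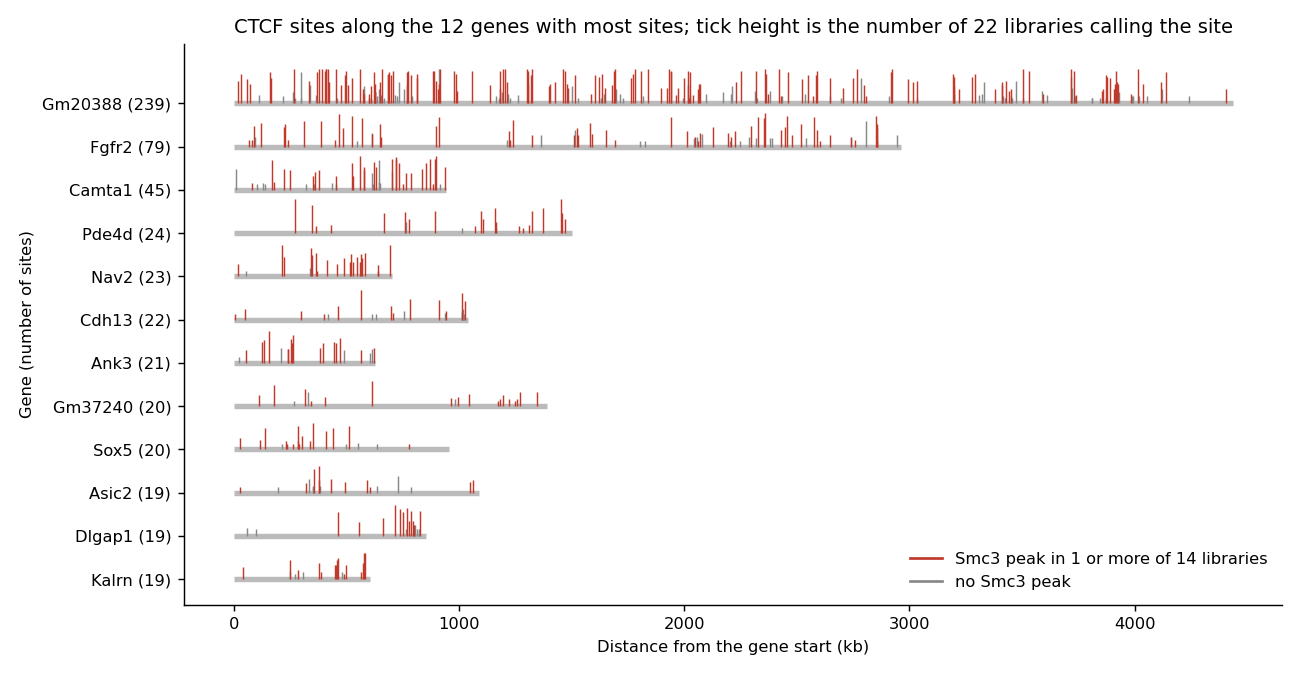
CTCF sites along the 12 genes with most sites, by distance from the gene start in kb. Grey bars are gene bodies, and each tick is a site whose height is the number of the 22 libraries calling it, in red where Smc3 had a peak in any of 14 libraries. Gm20388 holds 239 sites, whereas Kalrn holds 19, the first of them 41.8 kb from its start.

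At the other end, 19 genes of 500 kb or more held no site. The longest were Lrp1b (2058 kb), a lipoprotein receptor relative and fragile site gene, Il1rapl1 (1375 kb), a synaptic adhesion protein, and Dcc (1097 kb), the netrin receptor. Dmd, which encodes dystrophin and spans 2257 kb, held 2 sites and had a stretch of 1170 kb without one. In Macrod2, a fragile site gene of 1998 kb with 5 sites, 1417.96 kb separated the neighbours printed above. The shortest distance, 632 bp, separated the paired Grm7 sites. In 75 single-gene models, those without any site included, a stretch of over 500 kb was free of sites.

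Neighbouring sites of a gene were a median of 30.7 kb apart (25th to 75th percentile 9.51 to 97.1 kb, 1494 gaps), and 42.2 kb apart in single-gene models. The median was 22.9 kb in genes of 250 to 500 kb and 4.98 kb below 50 kb, where a gap cannot exceed the gene. Gaps over 100 kb made up 24.6% in long genes and 12.7% in genes of 250 to 500 kb. Close pairs were present too, since 14.2% of the gaps were under 5 kb.

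**Figure D2:**
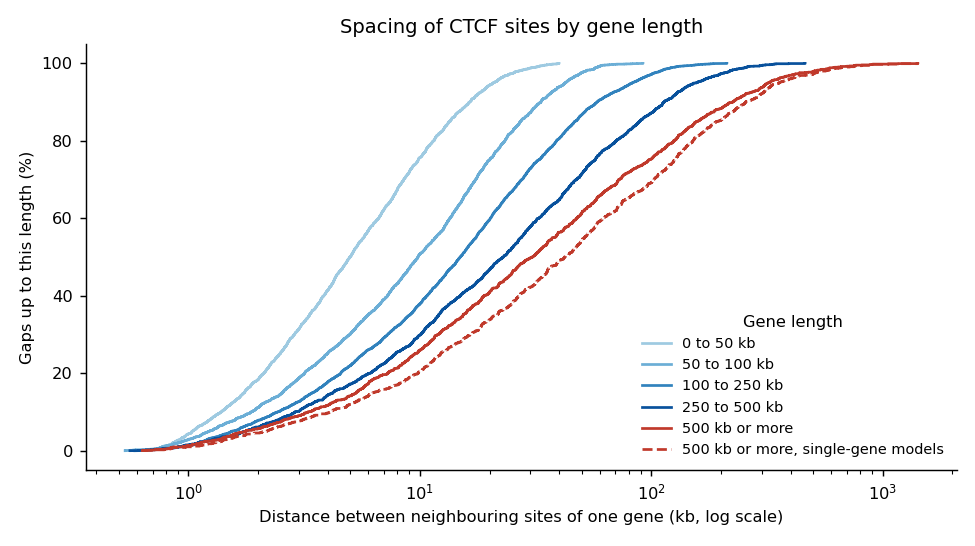
Share of gaps between neighbouring sites of a gene (y axis, %) up to a given distance (x axis, kb, log scale), by gene length. The curve for genes of 500 kb or more lies to the right of the shorter classes, with a median of 30.7 kb, and the dashed curve for single-gene models lies further right, at 42.2 kb.

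Sites were more frequent near the far end of long genes. With each gene cut into 10 equal parts, the last part held 277 sites (16.2%), against 190 (11.1%) in the first and 135 (7.92%) in the third. In single-gene models the last part held 18.5%, and in shorter genes 10.6%. First introns held 499 of the 1601 sites that could be placed in a numbered intron (31.2%) and made up 23.8% of the intron bases of the same genes. In single-gene models they held 253 of 1257 (20.1%), for which the share of bases was not computed. In the single-gene models the first site lay a median of 81.4 kb from the gene start, and the last site 50.0 kb from its end.

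A CTCF core motif was found at 1414 of the 1705 sites (82.9%, 95% Wilson interval 81.1% to 84.6%) and at 79.7% to 82.7% of sites in the 4 shorter classes. Windows 1000 bp to either side held one at 3.87% and 4.22% of the sites. The interval counts sites, which are not independent samples. Motif strand was split evenly relative to the gene: 711 motifs (50.3%) lay on the strand of the gene.

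Among 1034 neighbouring pairs in which both sites had a motif, 246 faced each other (23.8%), 242 faced away (23.4%) and 546 pointed the same way (52.8%). With distance the balance moved. Under 20 kb apart, 82 of 412 pairs were convergent and 115 divergent. At 100 kb or more, 75 of 256 were convergent (29.3%) and 44 divergent (17.2%). Pairs in shorter genes went the same way, from 22.3% convergent and 24.6% divergent under 20 kb to 29.3% and 13.8% at 100 kb or more.

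The most frequent 13-letter matches were CCAGAAGAGGGCA at 164 sites (11.6% of motifs) in 85 genes and CCAGAAGAGGGCG at 79 (5.59%). All of these lay in sequence that the RefSeq genome marks as repeats, as lower-case letters. The genome file does not name the repeat family, although B2 elements, short interspersed repeats of rodents, are known to carry CTCF motifs. The same words made up 17.6% and 9.12% of motifs in shorter genes, and 0.264% and 0.0587% of windows 1000 bp away held them on either strand. The first word had a median of 4 calling libraries, and Smc3 had a peak at 98 of its 164 sites. By contrast CCACTAGAGGGCA, found at 18 sites and never in a marked repeat, had a median of 9.5 calling libraries and Smc3 at all 18.

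Repeats as a whole held 416 of the 1414 motifs (29.4%, 27.1% to 31.8%), against 39.9% (39.1% to 40.7%) in shorter genes. The share was 31.1% at 250 to 500 kb and 43.6% at 50 to 100 kb. In 22 of the 22 libraries it was lower among the called sites in long genes (14.4% to 29.2%) than in shorter ones (16.3% to 40.1%). The libraries share sites, so this count is a description. Repeat motifs were most frequent at sites called in 2 libraries (42.5%) and least frequent at sites called in 16 to 21 (14.1%).

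Most sites were called in few libraries. The median site was called in 7 of 22, as in each length class from 50 to 500 kb. The median was 8 in genes below 50 kb and 6 in single-gene models. Of the 1705 sites, 273 were called in 2 libraries and 39 (2.29%) in all 22. Of these 39, 27 lay in Gm20388, and 11 (0.809%) remained in single-gene models, against 2.89% of sites in shorter genes. Only these 39 were ranked by mean percentile of fold enrichment within a library. The strongest of them lay in Gm20388, at chr8:121750513-121752132 (percentile 99.1) and at the site printed above (98.9), with Smc3 in 14 of 14 libraries at both. Among the 11 in single-gene models the strongest lay in Slit3, an axon guidance ligand (percentile 97.7), in Pde4d (96.9) and in Erc2, an active zone scaffold (96.0).

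The Slit3 site, in intron 26 of 35, had fold enrichments of 109, 41.9, 37.5 and 35.9 in the WT ESC libraries and 132, 40.5, 47.9 and 51.5 in ΔZF1 ESCs. In NPCs it had 56.6, 45.7, 35.4 and 30.8 in WT and 38.2, 21.8, 15.98 and 49.9 in ΔZF1. The WT and ΔZF1 ranges overlapped in both cell types. The Erc2 site had 142, 44.9, 72.1 and 17.2 in WT ESCs and 84.5, 29.5, 43.8 and 27.8 in ΔZF1 ESCs, which also overlapped. In NPCs it had 52.8, 37.9, 52.0 and 20.4 in WT and 17.3, 20.5, 19.0 and 24.7 in ΔZF1. There only the lowest WT value lay within the ΔZF1 range. Smc3 had a peak in 13 of 14 libraries at Slit3 and in 0 of 14 at Erc2, and Rad21 in 4 and 0 of 8. Erc2 and 1 site of Gm20388 were the 2 of the 39 without any Smc3 peak.

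To ask whether loss of zinc finger 1 changed how many of the sites were called, ΔZF1 was compared with WT. In ESCs the WT libraries called 1370, 628, 710 and 241 sites and the ΔZF1 libraries 1278, 459, 425 and 327. The groups overlapped, with a mean log2 difference of -0.21 (exact two-sided permutation p = 0.714, 4 against 4), and the direction turned without WT replicate 1 (0.17) or ΔZF1 replicate 4 (0.02). As a share of a library's sites the members were 3.35%, 2.93%, 3.15% and 2.20% in WT and 3.07%, 2.75%, 2.81% and 2.06% in ΔZF1. Every ΔZF1 library was below the WT library of the same number, yet the group means, 2.91% ± 0.50 and 2.67% ± 0.43 (SD, n = 4), did not differ beyond their spread (exact permutation p = 0.457). The smallest p that 4 against 4 allows is 0.0286. Within pairs of the same number the exact paired permutation p was 0.125, the smallest that 4 pairs can give.

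In NPCs the WT libraries called 807, 551, 707 and 273 sites and the ΔZF1 libraries 211, 241, 184 and 622. The highest ΔZF1 library exceeded 2 of the WT libraries. The mean log2 difference was -0.97 (exact permutation p = 0.0857) and was 0.01 when each library was reduced to the same number of sites. The shares were 2.77%, 2.69%, 2.94% and 1.87% in WT and 1.62%, 2.41%, 3.26% and 2.20% in ΔZF1, with means of 2.57% ± 0.47 and 2.37% ± 0.68 (SD, n = 4, exact permutation p = 0.629). The ΔZF1 effect on the log2 number did not differ detectably between NPCs and ESCs (difference -0.76, exact permutation within cell types, p = 0.400).

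**Figure D3:**
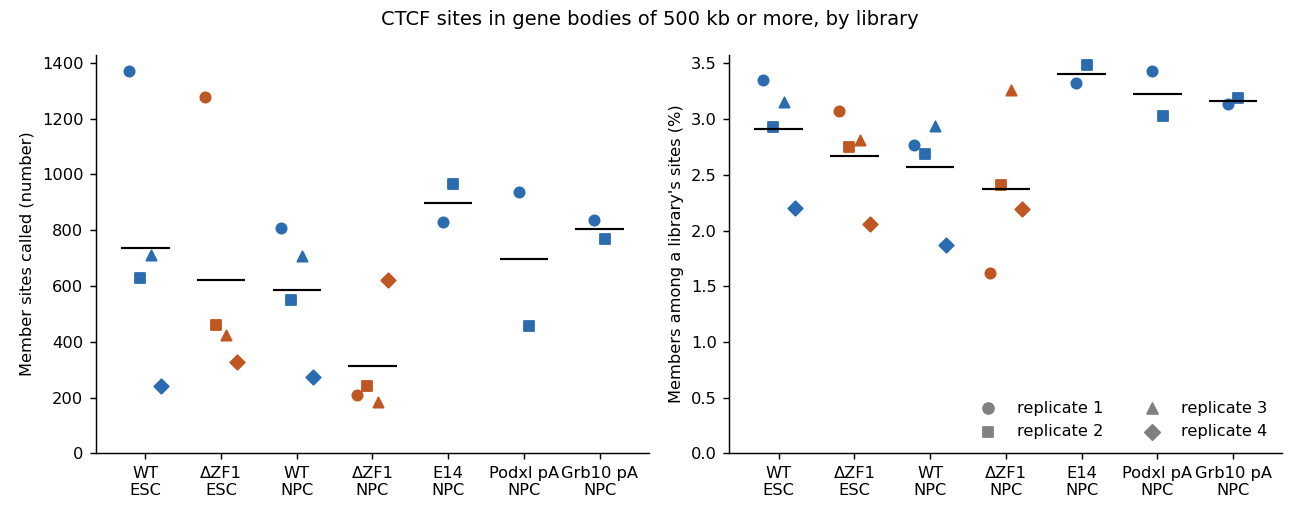
Number of sites in genes of 500 kb or more called in each CTCF library (left) and their share of the library's sites in % (right), with symbols for replicates and lines for group means. WT and ΔZF1 libraries overlap in both cell types, and the 6 E14, Podxl pA and Grb10 pA libraries sit between 3.03% and 3.49%.

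WT cells of the 2 stages were compared next. NPC WT called a mean of 585 sites and ESC WT 737, a mean log2 difference of -0.19 (exact permutation p = 0.771). The NPC share was lower than the ESC share in 4 of 4 pairs of the same number, with an overall difference of -0.34 percentage points (exact permutation p = 0.400). Parental E14 NPCs called 829 and 966 sites (3.32% and 3.49% of their sites), Podxl pA 937 and 458 (3.43% and 3.03%) and Grb10 pA 838 and 768 (3.14% and 3.19%). With 2 libraries each no test was made. Of 682 sites called in both E14 libraries, 585 and 353 were called in the Podxl pA libraries (85.8% and 51.8%) and 531 and 497 in the Grb10 pA libraries (77.9% and 72.9%). The shares for sites in shorter genes were higher in each library, at 88.8%, 58.0%, 82.2% and 78.2%.

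Reproducible sites, called in 3 of 4 libraries, numbered 490 in WT ESCs, 335 in ΔZF1 ESCs, 393 in WT NPCs and 133 in ΔZF1 NPCs. Of the 490, 266 were also reproducible in ΔZF1 ESCs (54.3%, 49.9% to 58.6%), against 63.0% (61.8% to 64.1%) in shorter genes. In single-gene models, a set taken after the data were seen, it was 46.3% (41.0% to 51.6%). When each library was reduced to an equal number of sites the shares were 72.5% and 72.9%. In NPCs 123 of 393 were kept (31.3%, 26.9% to 36.0%), against 33.8% in shorter genes, and 54 of 248 (21.8%) in single-gene models. With equal numbers of sites per library the NPC shares were 57.6% and 53.1%. Of the 490 WT ESC sites, 290 were reproducible in WT NPCs (59.2%, 54.8% to 63.4%), against 67.5% in shorter genes, and with equal numbers 68.1% against 67.0%. The intervals count sites only, and the number of peaks per library moved with these shares.

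The share kept rose with the strength of the site. Sites were put into 4 classes by mean percentile of fold enrichment in WT, with limits that split all reproducible gene-body sites evenly, a division added after the data were seen. In ESCs 36 of 142 sites of the weakest class were kept (25.4%), then 45 of 103 and 71 of 125, and 114 of 120 of the strongest. Sites of shorter genes in these classes were kept at 32.5%, 53.4%, 72.8% and 92.9%. In NPCs 5 of 102, 16 of 100, 35 of 91 and 67 of 100 sites were kept. At shorter genes 103 of 1429 were kept in the weakest NPC class and 991 of 1430 in the strongest. The rise was not particular to ΔZF1. From WT ESCs to WT NPCs 54 of 142, 44 of 103, 83 of 125 and 109 of 120 sites were kept. Sites with a motif in a repeat were kept in ΔZF1 cells in 43 of 86 cases in ESCs and 13 of 58 in NPCs. Those with a motif elsewhere were kept in 192 of 347 and 92 of 263. By motif, 57.1% of sites with a perfect match, 53.7% with 1 mismatch, 52.3% with 2 and 54.4% without a motif were kept in ESCs, against 69.0%, 61.9%, 59.4% and 60.7% in shorter genes. In NPCs 33 of 84, 41 of 143, 31 of 94 and 18 of 72 sites were kept, against 44.5%, 31.4%, 30.0% and 30.4% in shorter genes. A perfect motif thus had the highest share in each of these sets, by a small margin in long genes in ESCs. In single-gene models it did not, with 37 of 78 kept in ESCs and 11 of 54 in NPCs, against 36 of 74 and 17 of 62 with 2 mismatches.

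**Figure D4:**
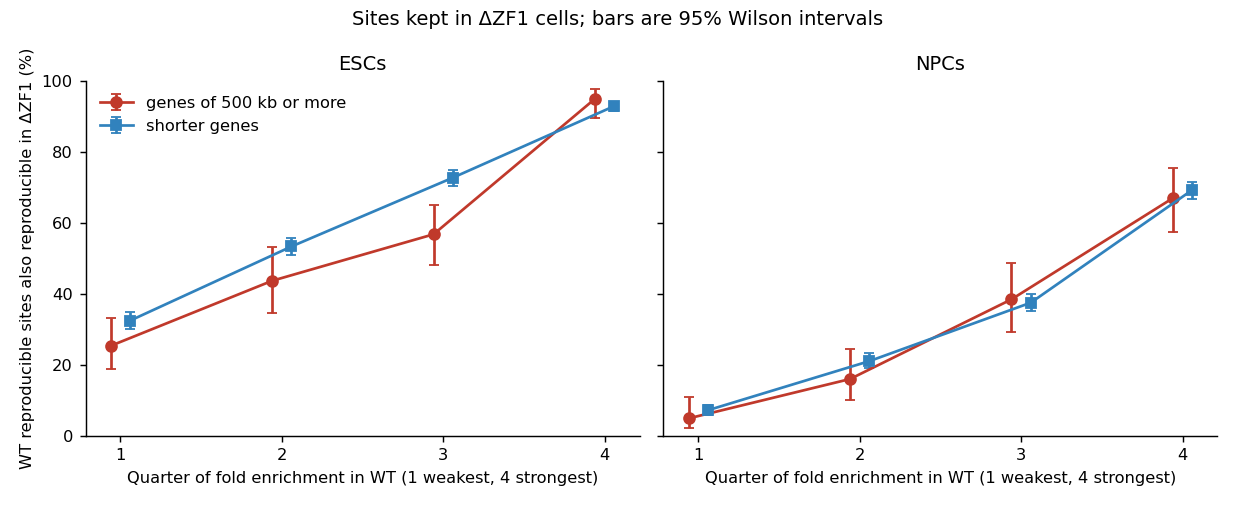
Share of WT reproducible sites that were also reproducible in ΔZF1 (y axis, %), by strength class of WT fold enrichment, in ESCs (left) and NPCs (right), with 95% Wilson intervals over sites. In genes of 500 kb or more 36 of 142 sites of the weakest and 114 of 120 of the strongest class are kept in ESCs, and 5 of 102 and 67 of 100 in NPCs.

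By gene, 76 of 120 single-gene models with a reproducible site had fewer of them in ΔZF1 than in WT ESCs, 17 had more and 27 had the same number. In NPCs 98 of 111 had fewer and 0 had more. From WT ESCs to WT NPCs 66 of 126 had fewer and 29 had more. Counts by gene were not made for shorter genes. Sites in shorter genes fell too, from 28.4% reproducible in WT NPCs to 10.1% in ΔZF1 NPCs. In long genes 393 and 133 of the 1705 sites were reproducible. With equal numbers of sites per library, the reproducible sites in long genes numbered 85 in WT and 60 in ΔZF1 NPCs. In ESCs they numbered 207 and 198. Camta1 had 22 reproducible sites in WT ESCs, 15 in ΔZF1 ESCs, 21 in WT NPCs and 6 in ΔZF1 NPCs. Slit3 kept its number better, with 6, 5, 4 and 4. Cacna1c, which encodes an L-type calcium channel, had 6, 7, 7 and 2. Ank3 had 11, 4, 5 and 2.

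Few sites were called in 4 of 4 libraries on one side of a comparison and 0 of 4 on the other. In ESCs 0 of the 1705 were specific to WT (0.0494% of all 52646 sites were) and 0 to ΔZF1 (0.00190%). In NPCs 4 of 1705 were specific to WT (0.424% of all sites) and 0 to ΔZF1 (0%). Those specific to WT included sites in Ctnna3, Ntm and Gm20388. The share of members so called was thus not above that of all sites. ΔZF1 NPC replicate 3 had the fewest peaks of all CTCF libraries, so absence there weighs little. The 4 became 53 without WT NPC replicate 4, 20 without ΔZF1 NPC replicate 4, 8 without WT replicate 2 and 7 without ΔZF1 replicate 3. Fewer libraries make the rule easier to meet, and counts over all sites are not given for these. The Ctnna3 site, in intron 5 of an adherens junction catenin gene, had fold enrichments of 6.11, 10.2, 6.57 and 5.97 in WT NPCs and was also called in 3 WT and 2 ΔZF1 ESC libraries. All 4 had also been called in at least 1 ΔZF1 ESC library. The Ntm site, in intron 1 of a neural adhesion gene, had 9.26, 6.54, 8.27 and 4.64. The mean percentiles of the Ctnna3 and Ntm sites were 41.6 and 43.3, below the middle of their libraries.

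Among the 8 WT rescue libraries 1 site was called in all ESC and no NPC libraries (0.0608% of all sites) and 2 the other way (0.0722%), all within Gm20388. The first site (chr8:121311275-121312019), at 5.29 to 17.4 in WT ESCs, had peaks in the 2 NPC libraries of parental E14 (6.92 and 12.7) and in 1 library each of Podxl pA and Grb10 pA. Of the other two, the site at chr8:120486403-120487253 was called in ΔZF1 ESC replicates 1 and 4 (7.40 and 3.09), and the site at chr8:122445242-122445607 in no ESC library.

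Ranks of fold enrichment were compared by limma over sites called in all 8 libraries of a comparison. Sites missing from any of these libraries were left out, so calls lost in a group cannot register in this test. In ESCs 0 of 120 members passed an adjusted p of 0.05 between ΔZF1 and WT (0.0386% of the 5188 sites tested passed), and 12 had an unadjusted p under 0.05, beside 435 of the 5188. In NPCs 0 of 47 passed (0% of 2366), with 1 at an unadjusted p under 0.05, beside 178 of the 2366. Between WT NPCs and WT ESCs 0 of 116 passed (0.251% of 5983), with 24 at an unadjusted p under 0.05, beside 970 of the 5983.

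With the replicate number as a block, 4 members passed between WT NPCs and WT ESCs (2.87% of all sites passed), while 0 passed between ΔZF1 and WT in ESCs (0.0578%) or NPCs (0%). A site in noncoding exon sequence near the end of Pde4d (chr13:109902321-109903589) ranked higher in NPCs by 1.14 ± 0.20 on the normal-score scale (SE, limma adjusted p = 0.0435). A site in the Fgfr2 model (chr7:132596709-132597815) ranked higher by 1.74 ± 0.34 (limma adjusted p = 0.049997) and a site in intron 1 of Cacna1c (chr6:119107359-119109495) by 1.00 ± 0.19 (limma adjusted p = 0.049997). A site in intron 10 of Zfhx3 (chr8:108886507-108887442), a transcription factor gene of neural and muscle cells, ranked lower by -1.24 ± 0.20 (limma adjusted p = 0.0424). Without the block their limma adjusted p-values were 0.186, 0.0893, 0.143 and 0.0808. The Zfhx3 site had fold enrichments of 35.3, 17.0, 30.6 and 10.78 in WT ESCs and 9.79, 9.83, 10.77 and 6.34 in WT NPCs, so the ranges met without overlap. The Fgfr2 site had 24.0, 7.97, 16.3 and 11.2 in ESCs and 40.5, 38.2, 26.4 and 36.8 in NPCs, with all values of the WT rescue NPCs higher. The other NPC groups were lower at this site, with 8.08 in E14, 9.42 in Podxl pA and 8.49 and 9.12 in Grb10 pA, and no call in 1 E14 and 1 Podxl pA library. At Zfhx3 these groups ran from 10.3 to 18.4, also with 1 library without a call. The Pde4d and Cacna1c ranges overlapped.

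Cohesin was present at many of the sites. Smc3 had a peak in at least 1 of 14 libraries at 1245 sites (73.0%) and Rad21 in at least 1 of 8 at 452 (26.5%). In shorter genes Smc3 shares ran from 56.7% at 50 to 100 kb to 70.3% at 250 to 500 kb. Over all sites, the Smc3 share was higher in long genes in 13 of 14 libraries, by a median of 3.78 percentage points (-0.34 to 12.2), and the Rad21 share in 8 of 8, by a median of 1.21. Among reproducible sites of the matching CTCF group it was higher in 12 of 14 and 8 of 8. Among those in single-gene models it was higher in 11 of 14 and 7 of 8. With all sites of single-gene models, Rad21 fell below shorter genes in WT ESC replicate 1 (3.38% against 5.11%). The same held in ΔZF1 ESC replicates 1 (1.18% against 1.51%) and 2 (2.43% against 2.94%). Rad21 stayed higher in WT ESC replicate 2 and in every NPC library. Smc3 was then lower in replicate 2 of WT ESCs, E14 and Podxl pA, and higher elsewhere. These counts are descriptions, since libraries share sites.

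The libraries of one group differed widely. At the 393 reproducible sites of WT NPCs, Smc3 had a peak at 78.1% and 48.9% in the 2 libraries, which held 27798 and 13710 peaks. The other groups had different sets of reproducible sites. The shares were 68.6% and 32.9% at 490 sites in WT ESCs and 67.8% and 49.9% at 335 in ΔZF1 ESCs. They were 91.0% and 89.5% at the 133 sites of ΔZF1 NPCs. Over the same 1705 sites Smc3 shares were 56.9% and 25.7% in WT NPCs and 57.5% and 55.1% in ΔZF1 NPCs. In ESCs these were 36.3% and 12.8% in WT and 36.5% and 20.9% in ΔZF1. At the reproducible sites of each group, Rad21 shares were 15.9% and 42.0% in WT ESCs and 7.16% and 10.7% in ΔZF1 ESCs. They were 21.1% and 33.6% in WT NPCs and 31.6% and 33.8% in ΔZF1 NPCs. The ESC Rad21 values of ΔZF1 lay below those of WT, with 1306 and 2347 peaks against 3539 and 10415, and shorter-gene sites moved with them (4.56% and 8.46% against 14.3% and 38.2%). With 2 against 2 libraries an exact permutation test cannot reach 0.05 and none was run, and the number of cohesin peaks and the genotype cannot be told apart.

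Sites called in more CTCF libraries had cohesin more often. Smc3 was found at 38.1% of sites called in 2 libraries, 58.8% at 3 to 5, 84.2% at 6 to 10 and 94.9% at 22. In shorter genes the same classes had 22.2%, 37.3%, 65.8% and 97.3%. At 16 to 21 libraries the shares were 95.4% and 93.8%, so the gap between long and shorter genes was narrower where more libraries called the site. Rad21 ran from 1.10% to 59.0%.

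**Figure D5:**
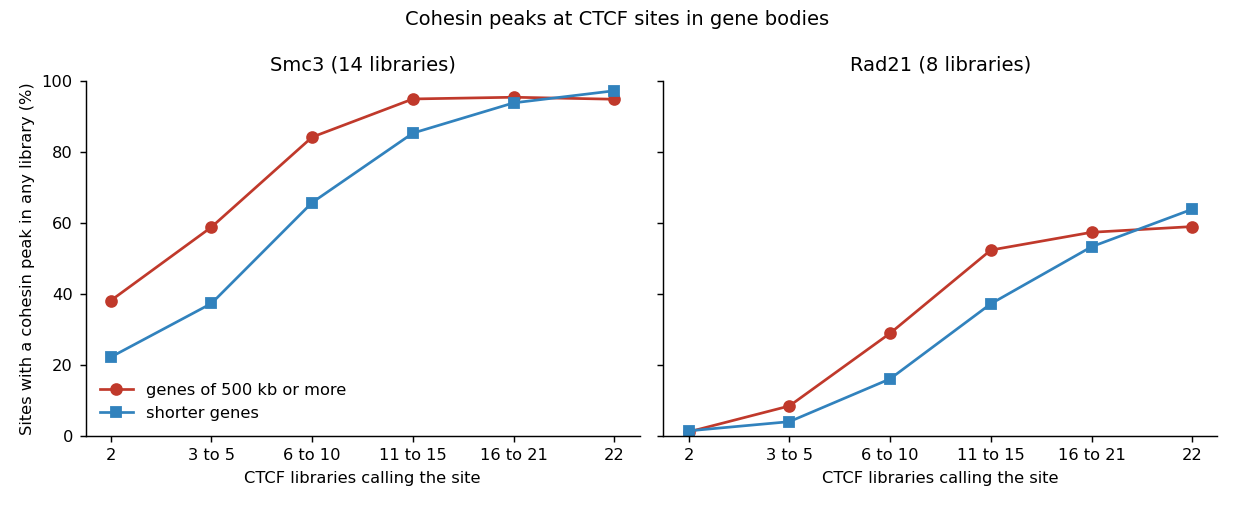
Share of sites with a Smc3 peak (left, any of 14 libraries) or a Rad21 peak (right, any of 8) by the number of CTCF libraries calling the site, in %. At 6 to 10 libraries Smc3 marks 84.2% of sites in genes of 500 kb or more and 65.8% in shorter genes, whereas at 22 the order is turned, at 94.9% and 97.3%.

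Gene families, by lists that overlap, differed in density. Transcription and RNA regulators had 168 sites in 16 genes (12.3 per Mb), led by Camta1, Sox5 and Zfhx3. Camta1 alone held 45 of these sites. Phosphodiesterase and cyclic nucleotide genes (Pde4d, Prkg1, Pde4b) had 10.9 per Mb, and receptor phosphatase and growth factor genes (led by Fgfr2, Ptprg and Ptprn2) had 9.04, with 79 of their 164 sites in the Fgfr2 model. Ion channel genes had 7.76 per Mb, led by Dpp6, Cacna1c and Kcnma1. Adhesion and synapse organizers, led by Dlgap1, Cntnap2 and Ntm, had 190 sites in 29 genes (6.04 per Mb). Cadherin and catenin genes (Cdh13, Ctnna3, Ctnna2) and axon guidance genes (Slit3, Epha6, Robo1) had 5.55 each.

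Common fragile site genes, led by Wwox, Rora and Csmd1, had 193 sites in 31 genes (5.17 per Mb), with 30 of the 31 holding a site. The density was 8.56 in all genes of 500 kb or more and 7.24 in single-gene models. The 31 genes covered 37.3 Mb and the 224 single-gene models 187.8 Mb, so the listed genes were longer on average. Density fell with gene length across the length classes, and the part of length in this difference was not tested. Among the lists described, motif shares ran from 78.0% in the receptor phosphatase list to 96.1% in ion channels, and Smc3 from 70.2% in transcription regulators to 82.9% in phosphodiesterases. In ESCs 30 of 49 reproducible sites of transcription regulators were kept in ΔZF1, 20 of 44 of adhesion genes and 5 of 7 of axon guidance genes, beside 266 of 490 over all members. In NPCs the counts were 11 of 45, 6 of 33 and 4 of 6, beside 123 of 393. Transcription regulators were thus above the share of all members in ESCs and below it in NPCs. Single-gene models kept 156 of 337 in ESCs and 54 of 248 in NPCs, and transcription regulators were above both of these shares. No member of a list passed limma without the block.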

How the data were processed

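Processed files were 44 peak lists, 1 for each ChIP sample, and 10 input samples had no list here. The authors aligned reads to mm10 with Bowtie2, kept mapping quality of 30 or more, discarded duplicates with Picard and blacklisted intervals with bedtools, and ran MACS2 on each sample at q of 0.01. Versions and input pairing are not given in the sources used here. The deposited lists give fold enrichment at the summit, a ratio of ChIP to local background, −log10 p and −log10 q, and a score computed from q for browser display. Fold enrichment depends on depth, so only ranks within a library were tested.

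Sites, gene bodies (GENCODE vM21, GRCm38), motifs and overlaps (1 bp or more) were computed in Python 3.11.15 with pysam 0.24.0, and ranks of fold enrichment were tested with limma 3.58.1 and Benjamini-Hochberg adjustment over all sites, after it was tested on simulated data. Numbers and shares of sites were compared by exact permutation of libraries. Genes were named by number of sites, by absence of sites, by calls and by family lists, while the 4 sites called with the block, the single-gene strongest sites and Dmd were named after their values were seen. Same-numbered libraries of compared groups deviated together (correlations 0.22 to 0.55), so the replicate block was used as a pairing. The labels do not say what pairs them, and p-values measure the spread between libraries. Peak names in replicate 4 lists carry replicate number 2. Members, family lists and tests were chosen with earlier results of these data known. Some named sites and 2 family lists are not reported here.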

Additional observations from a re-analysis of the deposited data

Results flagged for a closer look

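In 2 groups of 4 libraries 1 library stood far above the others in the number of sites called. ΔZF1 ESC replicate 1 called 1278 sites, against 327 to 459 in the other 3. ΔZF1 NPC replicate 4 called 622, against 184 to 241. Each gap to the next library, as a share of the group's range, was above Dixon's 95% critical value. The rule was applied in each rescue group to the number and share of sites, the median gap, the motif share and the number of genes with a call. For each of these measures chance marks about 1 group in 20, so some marks are expected by chance. Both lists were also the longest of their group, with 45941 and 33452 peaks, and the share of their sites that lay in long genes was the highest of its group in the first (3.07%) and inside the range of its group in the second (2.20%).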

How the results depend on the processing

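Of the values recomputed under alternatives 261 counted as unchanged, 83 moved and 10 turned. Differences in log2 number or share could count as unchanged whatever their size. Among these, the ΔZF1 difference ran from -1.57 to -0.37 for the NPC log2 number and from -0.57 to -0.031 for the ESC share. The 10 that turned were such differences, mostly within the spread between libraries. The 83 that moved were shares of sites kept, counts of sites specific to one group, limma counts, gaps and the E14, Podxl pA and Grb10 pA mean share. The exact permutation p of numbers and shares ran from 0.0571 to 1 over the alternatives. The cause of each move was not tested unless given. With replicates 1 and 4 alone the ESC log2 number difference turned to 0.17, and with equal numbers of sites the NPC one to 0.0098. The NPC share difference turned to 0.050 for genes of 1 Mb or more, 0.089 with equal numbers of sites and 0.019 with replicates 2 and 3. Leaving out 1 library, the log2 number ran from -0.67 to 0.17 in ESCs, from -1.36 to -0.78 in NPCs and from -0.65 to 0.19 between WT stages, and the share difference from -0.47 to -0.031, from -0.49 to 0.055 and from -0.58 to -0.11. The ESC log2 number turned without WT replicate 1 (0.17) or ΔZF1 replicate 4 (0.023), the NPC share without ΔZF1 replicate 1 (0.055), and the log2 number between stages without ESC WT replicate 1 (0.19) or NPC WT replicate 4 (0.13).

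The share of sites kept in ΔZF1 ESCs was 61.9% for genes of 1 Mb or more, 72.5% with equal numbers, 77.2% with replicates 1 and 4, 44.2% with 2 and 3, and 46.3% in single-gene models. In NPCs it was 40.6%, 57.6%, 54.7%, 23.04% and 21.8%. From WT ESCs to WT NPCs it was 68.2% at 1 Mb, 68.1% with equal numbers and 51.6% in single-gene models. Leaving out 1 library gave 30.8% to 85.1%, 15.0% to 53.4% and 32.2% to 85.6%, since a group of 3 must then call a site 3 times.

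Sites specific to WT ESCs against ΔZF1 numbered 1 with summits joined within 150 bp and 3 with equal numbers. They numbered 5 with replicates 1 and 4 and 95 with 2 and 3, while 11 and 10 were specific to ΔZF1 there. Over all sites these counts were 74 with equal numbers, 96 and 2411 in the replicate sets, and 1228 and 232 for ΔZF1. In NPCs those specific to WT numbered 13 at 300 kb and 1 with equal numbers. They numbered 19 with replicates 1 and 4 and 192 with 2 and 3, and 14 and 1 were specific to ΔZF1. Over all sites these counts were 71 with equal numbers, 702 and 6260 in the replicate sets, and 1336 and 31 for ΔZF1. Specific to WT ESCs against WT NPCs were 2 at −log10 q of 5 or more, 2 with equal numbers, 21 and 65 in the replicate sets and 0 in single-gene models, and to NPCs 1, 14, 39 and 0 without the q limit. Over all sites, with equal numbers and in the replicate sets, these were 95, 546 and 1292 for ESCs and 69, 843 and 1309 for NPCs. Leaving out 1 library gave 0 to 11 and 0 to 2 in ESCs, 4 to 53 and 0 to 1 in NPCs, and 1 to 38 and 2 to 7 between stages, with the highest counts without WT replicate 4 in NPCs (53), without ESC WT replicate 4 between stages (38) and without ΔZF1 replicate 1 in ESCs (11), where fewer libraries make the rule easier to meet.

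With the replicate block limma called 4 sites between WT stages, and the pairing changed no other call, with exact paired p of 0.375, 0.250 and 0.375 for numbers and 0.125, 0.875 and 0.125 for shares. Quantile normalization gave 3, and leaving out 1 library 0 to 1 (1 without NPC WT replicate 2). limma with equal numbers of peaks was not run. The median gap was 26.6 kb at 300 kb, 24.5 kb at 1 Mb, 33.2 kb in 3 or more libraries, 28.2 kb with joined summits, 33.5 kb with all transcript starts and 42.2 kb in single-gene models. The mean share in the 6 E14, Podxl pA and Grb10 pA libraries was 2.47% in single-gene models. Smc3 overlap in WT NPCs was 48.9% or 78.1% by library.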
